A study of Mus musculus with 15 samples.

Results

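The genes described here are the interferon-induced genes of the mouse left ventricle: 86 rows of a table of 47069 genes, chosen by symbol. The choice was made with earlier results of these data known. The rule took the Ifit, Oas, Gbp, Irgm, Mx and Ifitm families, the other Ifi genes, the interferon regulatory factors and a set of single genes such as Rsad2, Bst2, Zbp1 and Stat2. The symbols fall into 42 genes called type I-like here, 22 called type II-like, 4 of the Ifi200 family, 7 of the Ifitm family and 11 others. Some rows match by name and are not known as interferon targets: Irf2bp1, Irf2bp2 and Irf2bpl (binding partners of a regulatory factor), Isg20l2 (a nuclease of ribosome maturation), Ifitm5 (a bone protein), Ifitm10, and the factor Irf3, for example.

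Messenger RNA was sequenced from 15 left ventricles of C57BL/6 mice, 5 in each of 3 groups. rHCI hearts had an infarct and received a hydrogel of recombinant human collagen type I, injected into the heart muscle 7 days later. PBS hearts had the same infarct and an injection of saline at that time, and hearts of both groups were taken 2 days after injection. Sham hearts came from 10-week-old mice with no infarct and no treatment, matched in age to the infarcted mice. All hearts were flushed with PBS solution before freezing, and whole ventricular tissue was used, so infarcted and spared muscle were mixed. The labels state that the libraries of a group are biological replicates. rHCI against PBS asks what the hydrogel changed, and PBS against Sham and rHCI against Sham show the infarct and the injection together. The last 2 share the Sham hearts, and PBS hearts enter both the first and the second comparison.

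Interferons are secreted proteins that put cells into an antiviral and inflammatory state. Type I interferons (alpha and beta) act through the receptor chains Ifnar1 and Ifnar2, the kinases Jak1 and Tyk2 and a complex that includes Stat2 and Irf9 and binds interferon-stimulated response elements. Type II interferon (gamma), made mainly by T and natural killer cells, acts through Ifngr1 and Ifngr2 and turns on genes with gamma-activated sites. Many targets respond to both, so the names type I-like and type II-like describe which response a gene is best known for. In the infarcted heart of mice, a type I response in infiltrating myeloid cells has been described.

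Promoters of 5 members are printed because they show arrangements of these elements' core letters found among the members. Sequences are from RefSeq (GRCm38.p6), each 250 bases before to 50 bases after a gene's start, 5′ to 3′ on the strand of the gene. Capitals mark matches to the core of the response element, GAAANNGAAA on either strand (TTTCNNTTTC on the other), and in Igtp and Irf1 also to the core of the gamma-activated site, TTCNNNGAA, which reads the same on both strands.
Ifit1 (chr19:34640639-34640938, plus strand): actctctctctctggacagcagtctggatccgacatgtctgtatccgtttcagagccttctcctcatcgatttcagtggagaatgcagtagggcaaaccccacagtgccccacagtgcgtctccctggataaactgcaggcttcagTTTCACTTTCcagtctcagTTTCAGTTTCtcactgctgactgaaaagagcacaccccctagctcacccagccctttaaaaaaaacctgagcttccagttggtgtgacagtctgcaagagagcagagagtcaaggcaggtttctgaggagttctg
Isg15 (chr4:156200769-156201068, minus strand): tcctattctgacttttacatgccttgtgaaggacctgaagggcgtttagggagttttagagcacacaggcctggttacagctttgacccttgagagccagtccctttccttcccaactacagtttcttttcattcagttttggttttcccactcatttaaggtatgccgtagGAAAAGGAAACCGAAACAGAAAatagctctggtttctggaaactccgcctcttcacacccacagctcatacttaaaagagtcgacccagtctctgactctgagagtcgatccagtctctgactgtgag
Irgm1 (chr11:48871371-48871670, minus strand): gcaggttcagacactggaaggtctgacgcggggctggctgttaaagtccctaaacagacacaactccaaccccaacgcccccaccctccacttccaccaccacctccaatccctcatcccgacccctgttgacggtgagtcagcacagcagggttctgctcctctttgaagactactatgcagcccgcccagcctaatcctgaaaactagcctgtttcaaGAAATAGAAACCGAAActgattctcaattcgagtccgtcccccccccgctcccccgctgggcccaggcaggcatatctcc
Igtp (chr11:58199306-58199605, plus strand): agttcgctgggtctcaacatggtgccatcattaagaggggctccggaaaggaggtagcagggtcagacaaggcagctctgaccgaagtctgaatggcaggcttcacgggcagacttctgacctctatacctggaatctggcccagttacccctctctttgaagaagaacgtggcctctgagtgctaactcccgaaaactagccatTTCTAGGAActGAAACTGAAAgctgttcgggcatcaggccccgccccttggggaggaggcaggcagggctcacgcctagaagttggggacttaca
Irf1 (chr11:53769764-53770063, plus strand): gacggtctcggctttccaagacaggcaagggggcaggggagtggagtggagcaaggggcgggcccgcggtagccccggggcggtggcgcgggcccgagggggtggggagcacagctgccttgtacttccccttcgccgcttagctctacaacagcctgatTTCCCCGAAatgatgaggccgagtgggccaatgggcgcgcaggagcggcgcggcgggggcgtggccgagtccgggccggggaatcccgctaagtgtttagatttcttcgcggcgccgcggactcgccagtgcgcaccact
Ifit1, which encodes a protein that binds viral RNA, holds 2 separate response-element cores on the opposite strand. Isg15, a ubiquitin-like protein, holds 3 overlapping ones, and Irgm1, an immunity-related GTPase, holds 2 that overlap. Igtp, another GTPase of that family, holds 1 core of each kind close together, and Irf1, a transcription factor that interferon gamma induces, holds the gamma-activated core alone.

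Of the 86 members, 59 had a promoter entry in that table. The response-element core was found in 29 of them (49.2%), against 3.99% of 27025 genes with an entry. The gamma-activated core was found in 17 members (28.8%), against 9.55% of genes. Of 29 type I-like members with an entry, 16 held the first core and 6 the second. Of 12 type II-like members, 8 held the first and 6 the second. A gene with several windows counted once, as holding a core if any window did, and a match says only that the letters are there.

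Counts per library totalled 48699092 to 62577074 in rHCI, 32978702 to 103356830 in PBS and 53211878 to 100899246 in Sham hearts. Levels are given as CPM, reads of a gene scaled to a common library total with factors from all libraries, and in every list of single hearts the order is rHCI 1, 3, 7, 11 and 13, PBS 2, 6, 9, 12 and 14, and Sham 16, 17, 18, 19 and 20. Mean levels are followed by the SD over 5 hearts and log2 fold changes by their SE. A gene was called at an adjusted p under 0.05 in edgeR. Against Sham, 74 members had enough counts to be tested, and 76 in rHCI against PBS. The 10 members never tested (Gbp2-ps, Gbp2b, Ifi202b, Ifi44l, Ifitm7, Oas1d, Oas1e, Oas1f, Oas1h and a second row named Gbp6) had 0 to 57 counts in all libraries together. Gbp11 and Ifi27l2b were the other 2 left out against Sham. Gbp8 and Ifitm6 entered the tests against Sham through the infarcted hearts, with most Sham libraries under the filter, and Ifi27l2b entered rHCI against PBS through 1 group.

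In the infarcted hearts that received saline, most members were higher than in Sham hearts. Of the 74 tested, 62 rose and 5 fell in PBS against Sham, with a median log2 fold change of 0.91. A large share of the whole table differed in that comparison: 71.4% of 16207 genes were called, 36.5% higher and 34.9% lower, with a median of -0.01. The groups did not overlap, upward in 57 members and downward in 5, against 31.6% and 27.4% of all genes. Both the 62 and the 57 include Gbp8 and Ifitm6, which passed the filter through the infarcted hearts. All 36 type I-like members tested were called, 34 higher and 2 lower, with a median of 1.12. Of 18 type II-like members tested, 15 rose, 3 were not called and the median was 0.67. In whole tissue, more cells of a type and more RNA per cell cannot be told apart.

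The 3 largest type I-like rises were in antiviral sensors and effectors. Oas3, an oligoadenylate synthetase that switches on RNA decay, had 3.24, 3.04, 3.04, 2.69 and 3.84 CPM in rHCI hearts, 4.25, 3.62, 4.50, 3.57 and 3.19 CPM in PBS hearts and 0.471, 0.491, 0.400, 0.512 and 0.236 CPM in Sham hearts. Every infarcted heart was far above every Sham heart, and the rise was 9.21-fold in PBS against Sham (log2 fold change 3.20 ± 0.19, adjusted p = 1.08e-08). Zbp1, a sensor of Z-form nucleic acid that can start necroptosis, had 5.38, 3.72, 3.87, 4.70 and 5.17 CPM in rHCI hearts, 6.53, 5.04, 5.22, 4.62 and 4.46 CPM in PBS hearts and 0.915, 0.901, 0.743, 0.846 and 0.617 CPM in Sham hearts. Its groups were just as separate, with a log2 fold change of 2.68 ± 0.15 (adjusted p = 5.08e-09). Mx1, a GTPase that blocks influenza viruses, had 2.26, 2.33, 2.29, 1.89 and 2.07 CPM in rHCI hearts, 3.32, 2.81, 3.34, 2.60 and 2.70 CPM in PBS hearts and 0.821, 0.409, 0.362, 0.728 and 0.292 CPM in Sham hearts. Sham hearts 16 and 19 were above the other Sham hearts for Mx1 and still below every infarcted heart (log2 fold change 2.49 ± 0.24, adjusted p = 1.06e-06). The Mx genes of C57BL/6 mice are known to carry defects that prevent a working protein, so these are transcript levels only.

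The Ifit genes, whose proteins bind viral RNA, moved with them. Ifit3 had 20.7, 19.1, 18.5, 20.8 and 24.5 CPM in rHCI hearts, 31.4, 27.02, 30.04, 23.8 and 24.5 CPM in PBS hearts and 9.81, 8.62, 7.81, 7.24 and 5.67 CPM in Sham hearts. No Sham heart was above 9.81 CPM and no infarcted heart below 18.5 CPM, and the log2 fold change was 1.80 ± 0.13 in PBS against Sham (adjusted p = 6.63e-08). Ifit1 had 15.96, 13.9, 15.2, 16.6 and 15.4 CPM in rHCI hearts, 21.7, 19.3, 22.9, 18.5 and 17.4 CPM in PBS hearts and 8.81, 8.05, 7.38, 7.64 and 5.22 CPM in Sham hearts, again without overlap between infarcted and Sham hearts (1.43 ± 0.12, adjusted p = 3.56e-07). Ifit2 averaged 33.5 ± 2.98 CPM in rHCI, 40.4 ± 2.64 CPM in PBS and 18.3 ± 2.53 CPM in Sham, with a log2 fold change of 1.14 ± 0.09 in PBS against Sham. Ifit3b, a near-identical neighbour of Ifit3 whose reads may be shared with it, rose by 1.57 ± 0.12.

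Isg15, which is attached to other proteins like ubiquitin, had 8.99, 8.85, 8.14, 8.57 and 9.16 CPM in rHCI hearts, 12.5, 11.2, 12.2, 11.3 and 8.97 CPM in PBS hearts and 4.20, 3.54, 4.17, 4.47 and 2.19 CPM in Sham hearts. Its log2 fold change in PBS against Sham was 1.60 ± 0.16 (adjusted p = 1.58e-06). Usp18, the protease that removes Isg15 and dampens the receptor, rose with it (1.04 ± 0.11), at 7.21 ± 0.194 CPM in rHCI, 8.13 ± 0.754 CPM in PBS and 3.96 ± 0.620 CPM in Sham. Bst2 (tetherin), which holds budding viruses at the cell surface, averaged 32.4 ± 1.83 CPM in rHCI, 37.6 ± 3.73 CPM in PBS and 17.8 ± 1.96 CPM in Sham (1.08 ± 0.09). Rsad2 (viperin), an enzyme that makes a chain-terminating nucleotide, rose by 0.89 ± 0.15 and Cmpk2, its neighbour read in the opposite direction, by 0.60 ± 0.12.

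The RNA helicases that sense viral RNA all rose in PBS against Sham. Dhx58 (LGP2), the regulator of the other sensors, had a log2 fold change of 1.73 ± 0.18, Ddx58 (RIG-I) one of 1.10 ± 0.08 and Ifih1 (MDA5) one of 0.88 ± 0.07. Eif2ak2 (PKR), the kinase that stops translation on double-stranded RNA, rose by 0.72 ± 0.08. In the signalling complex, Stat2 rose by 0.92 ± 0.11 and Irf9 by 0.83 ± 0.07. Irf7, the factor that amplifies interferon alpha, had 26.9, 27.5, 24.3, 28.002 and 30.7 CPM in rHCI hearts, 36.1, 34.2, 33.8, 30.96 and 29.7 CPM in PBS hearts and 17.4, 15.6, 16.98, 15.1 and 11.7 CPM in Sham hearts, and its log2 fold change was 1.10 ± 0.10 (adjusted p = 3.88e-07). The smallest rise among the type I-like genes was that of Ifi35 (0.28 ± 0.05), with 19.2, 19.1, 19.3, 17.9 and 18.1 CPM in PBS hearts and 16.1, 14.6, 14.9, 16.3 and 14.9 CPM in Sham hearts.

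**Figure D1:**
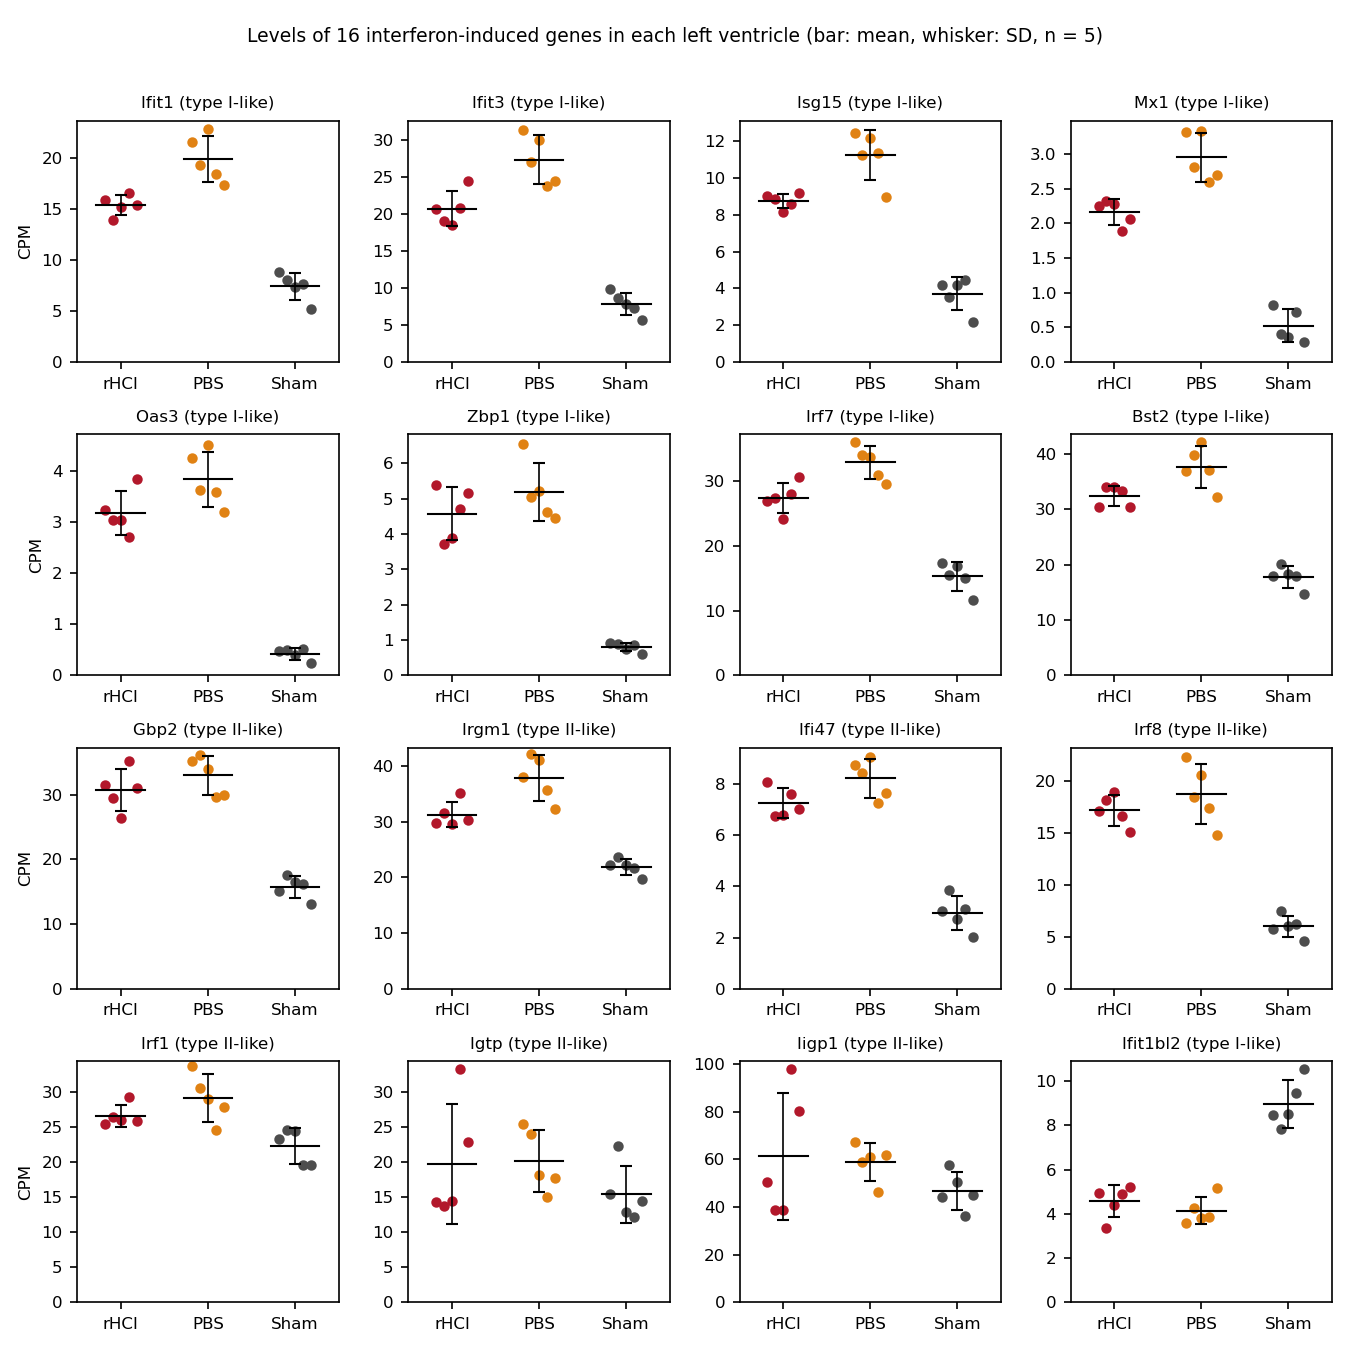
Level in CPM (vertical axes, linear and starting at 0) of 16 members in each of 15 left ventricles, rHCI in red, PBS in orange and Sham in grey; the horizontal bar is the mean and the whisker the SD over 5 hearts. Ifit1 averages 15.4 ± 1.002 CPM in rHCI, 19.95 ± 2.25 CPM in PBS and 7.42 ± 1.34 CPM in Sham hearts, while in Igtp and Iigp1 single rHCI hearts reach 33.4 and 98.1 CPM.

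The 2 type I-like members that fell are Ifit genes. Ifit1bl2 had 4.97, 3.39, 4.41, 4.92 and 5.21 CPM in rHCI hearts, 3.59, 4.28, 3.83, 3.87 and 5.16 CPM in PBS hearts and 8.46, 7.82, 8.52, 9.49 and 10.6 CPM in Sham hearts. All infarcted hearts were below all Sham hearts, with a log2 fold change of -1.11 ± 0.11 in PBS against Sham (adjusted p = 1.05e-06). Ifit1bl1, its close copy, had 4.61, 4.53, 4.32, 4.40 and 4.79 CPM in PBS hearts and 5.99, 5.43, 5.77, 7.03 and 8.28 CPM in Sham hearts (-0.53 ± 0.11, adjusted p = 7.54e-04). With scaling by library totals its log2 fold change was -0.25 and was no longer called. Reads of these copies may be divided between them, since their sequences are alike.

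These genes lie within the Ifit locus, which spans 99316 bases of chromosome 19 (GRCm38, 34550694 to 34650009) and holds 6 members, 4 that rose and 2 that fell. Ifit1bl2 and Ifit1 are neighbours read in opposite directions. RefSeq gives Ifit1bl2 a pair of starts, and the nearer one is 146 bases from that of Ifit1, at 34640743 on the minus strand for Ifit1bl2 and at 34640889 on the plus strand for Ifit1. The 2 response-element cores in the printed Ifit1 promoter, at 34640785 to 34640794 and at 34640804 to 34640813, lie between these starts and so are in both of these promoter windows. The other Ifit1bl2 window (34629762 to 34630061) holds 0 such cores. In PBS against Sham, Ifit1bl2 fell by 1.11 and Ifit1 rose by 1.43 on the log2 scale. Among all 5 members that fell, 3 held that core, as did 24 of the 44 that rose and had an entry.

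**Figure D2:**
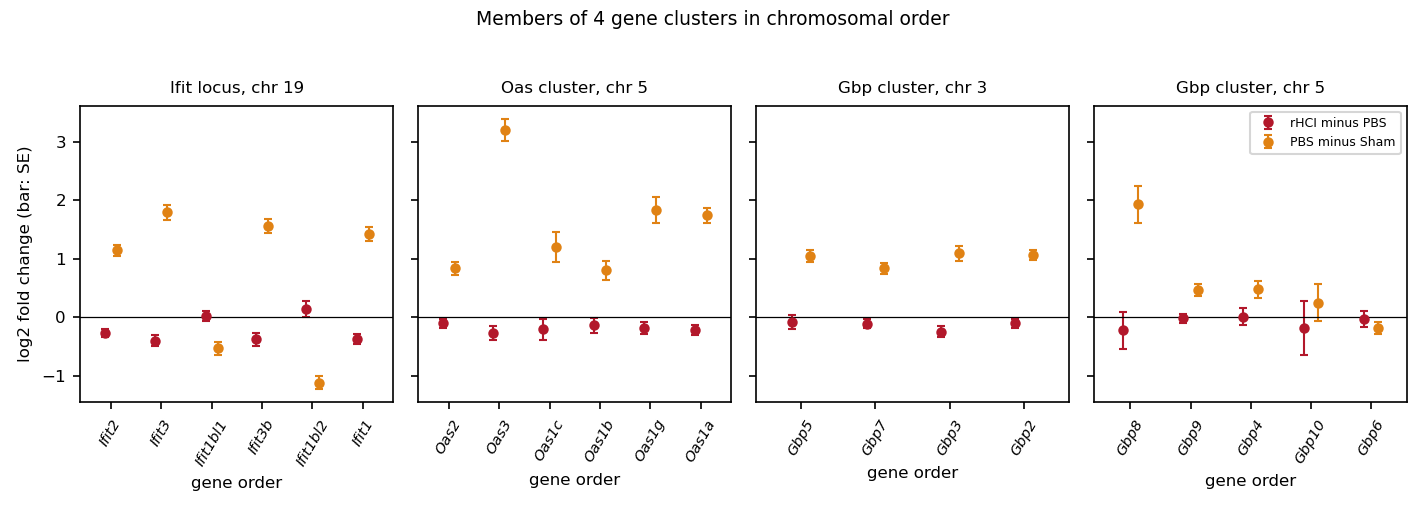
Log2 fold change with its SE (vertical axis) for members of 4 gene clusters in chromosomal order, rHCI minus PBS in red and PBS minus Sham in orange. Ifit1bl1 and Ifit1bl2 lie below 0 in PBS minus Sham between neighbours at 1.14 to 1.80, and the Gbp genes of chromosome 3 lie between 0.84 and 1.09.

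The Oas cluster on chromosome 5 (120730333 to 120921652) was uniform in direction. It holds 10 members, of which 6 were tested and all 6 rose, from 0.81 to 3.20, with a median of 1.48. Oas1a averaged 6.57 ± 0.408 CPM in rHCI, 7.67 ± 0.827 CPM in PBS and 2.28 ± 0.405 CPM in Sham (1.75 ± 0.13 in PBS against Sham) and Oas2 averaged 15.6 ± 0.738 CPM in rHCI, 16.8 ± 1.78 CPM in PBS and 9.42 ± 1.54 CPM in Sham (0.84 ± 0.11). Oasl2, a related protein encoded elsewhere on that chromosome, had 33.7, 33.4, 29.8, 32.8 and 33.7 CPM in rHCI hearts, 41.1, 36.1, 45.1, 38.9 and 34.02 CPM in PBS hearts and 14.4, 12.5, 10.9, 13.03 and 8.47 CPM in Sham hearts (1.72 ± 0.12, adjusted p = 7.04e-08). Oas1g rose by 1.84 ± 0.22 and shares long stretches with Oas1a, so their reads may be divided. The 4 untested Oas genes had 0 to 5 counts each.

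The type II-like members ranged from -0.19 to 2.35 in PBS against Sham. The largest rise was in Ifi30 (GILT), a thiol reductase that prepares antigens in lysosomes, with 22.6, 26.4, 24.8, 19.1 and 22.7 CPM in rHCI hearts, 32.5, 23.4, 26.97, 27.1 and 20.4 CPM in PBS hearts and 5.96, 4.95, 5.37, 4.25 and 4.78 CPM in Sham hearts. No Sham heart was above 5.96 CPM and no infarcted heart below 19.1 CPM (2.35 ± 0.12 in PBS against Sham, adjusted p = 4.02e-09). Irf8, a factor needed for monocytes and dendritic cells, had 17.1, 18.2, 19.01, 16.7 and 15.1 CPM in rHCI hearts, 22.4, 18.5, 20.6, 17.5 and 14.8 CPM in PBS hearts and 5.77, 7.49, 6.06, 6.24 and 4.60 CPM in Sham hearts (1.64 ± 0.13, adjusted p = 1.55e-07). Both genes are also expressed by macrophages without interferon. Irf1, an early target of interferon gamma, had 25.4, 26.4, 25.95, 29.2 and 25.8 CPM in rHCI hearts, 33.7, 30.6, 28.96, 24.6 and 27.9 CPM in PBS hearts and 23.2, 24.6, 24.4, 19.5 and 19.6 CPM in Sham hearts. Its groups came close, PBS 12 at 24.6 CPM beside Sham 17 at 24.6 CPM, and the rise was small (0.38 ± 0.09, adjusted p = 0.00198).

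The guanylate-binding proteins (Gbp), large GTPases that attack vacuoles of intracellular microbes, lie in 2 clusters. On chromosome 3 (142493978 to 142669041) the 4 tested genes all rose in PBS against Sham: Gbp3 (1.09 ± 0.12), Gbp2 (1.07 ± 0.08), Gbp5 (1.05 ± 0.10) and Gbp7 (0.84 ± 0.10). Gbp2 had 31.5, 29.5, 26.4, 35.1 and 30.9 CPM in rHCI hearts, 35.2, 36.1, 34.01, 29.7 and 29.9 CPM in PBS hearts and 15.1, 17.6, 16.4, 16.3 and 13.05 CPM in Sham hearts, with no overlap between infarcted and Sham hearts. On chromosome 5 (105014150 to 105346472) 3 of the 5 tested rose, with a median of 0.47. Those were Gbp8 (1.93 ± 0.32, with at most 0.988 CPM), Gbp4 (0.48 ± 0.15) and Gbp9 (0.47 ± 0.11). Gbp8 passed the filter through the infarcted hearts, so a rise was favoured for it. Gbp10 (0.25 ± 0.32) and Gbp6 (-0.19 ± 0.10, adjusted p = 0.119) were not called. The annotated exons of Gbp4, Gbp8 and Gbp9 overlap on the same strand, as do those of Gbp6 and Gbp10 with a joint gene, so the division of reads among them is uncertain.

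The immunity-related GTPases, which also act on such vacuoles, ranged from a clear rise to no call. Ifi47 had 8.07, 6.74, 6.78, 7.60 and 7.02 CPM in rHCI hearts, 8.72, 8.40, 9.05, 7.23 and 7.61 CPM in PBS hearts and 3.04, 3.85, 2.73, 3.13 and 2.03 CPM in Sham hearts and rose by 1.48 ± 0.14. Irgm1 had 29.7, 31.5, 29.6, 35.1 and 30.4 CPM in rHCI hearts, 38.1, 42.2, 41.1, 35.6 and 32.2 CPM in PBS hearts and 22.2, 23.7, 22.2, 21.7 and 19.6 CPM in Sham hearts, without overlap, and rose by 0.79 ± 0.08 (adjusted p = 8.46e-07). Irgm2 rose by 0.56 ± 0.11 with PBS 12 inside the Sham range. Iigp1, encoded on chromosome 18, had 50.6, 38.7, 38.8, 98.1 and 80.5 CPM in rHCI hearts, 67.4, 58.8, 60.96, 46.1 and 61.7 CPM in PBS hearts and 44.4, 57.6, 50.5, 36.3 and 45.1 CPM in Sham hearts. Its rise in PBS against Sham was 0.33 ± 0.12 with overlapping groups (adjusted p = 0.0219), and the call was lost without PBS 2 (0.28), without Sham 19 (0.25) and among the libraries whose file descriptions in the labels carry the same unexplained number (0.25). Igtp had 14.3, 13.7, 14.5, 33.4 and 22.9 CPM in rHCI hearts, 25.4, 24.1, 18.3, 15.1 and 17.8 CPM in PBS hearts and 15.5, 22.4, 12.9, 12.2 and 14.5 CPM in Sham hearts and was not called (0.38 ± 0.17, adjusted p = 0.0673), although it passed without Sham 17 (0.54) or without PBS 12 (0.47). Igtp and Irgm2 overlap in annotated exons on the same strand, so reads may have been assigned to either.

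Smaller families followed the same direction with exceptions. Of 3 Ifi200 genes tested, which encode sensors of DNA, Ifi204 (1.62 ± 0.10) and Ifi203 (1.02 ± 0.07) rose. Ifi205 fell (-0.76 ± 0.11, adjusted p = 4.47e-05), with 4.42, 4.50, 5.08, 4.004 and 5.01 CPM in PBS hearts and 7.87, 6.06, 7.45, 7.75 and 9.53 CPM in Sham hearts. The Ifitm proteins sit in membranes and hinder virus entry. Ifitm3 had 101, 104, 98.5, 95.7 and 99.4 CPM in rHCI hearts, 113, 107, 117, 112 and 104 CPM in PBS hearts and 63.3, 60.5, 54.3, 63.5 and 49.5 CPM in Sham hearts and rose by 0.92 ± 0.07, and Ifitm2 rose by 0.83 ± 0.06. Ifitm1 (0.43 ± 0.17) was called with overlapping groups, and the call was lost without PBS 2 or PBS 6, without Sham 17, 18 or 20, and among the libraries that share that number. Ifitm6 (2.05 ± 0.38) and Ifitm10 (1.75 ± 0.12) rose at low levels, and Ifitm5 was not called. Ifitm6 passed the filter through the infarcted hearts, so a rise was favoured for it.

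Among the other members, Irf5, a factor of macrophage activation, rose most (1.85 ± 0.12), with 11.5 ± 2.39 CPM in rHCI, 13.3 ± 1.16 CPM in PBS and 3.68 ± 0.685 CPM in Sham. Parp9 (0.82 ± 0.07) and Parp14 (0.80 ± 0.06), enzymes that attach ADP-ribose, and Irf2 (0.39 ± 0.05), which opposes Irf1, rose too. Irf3, the constitutive factor that switches on interferon beta, was not called (0.11 ± 0.05, adjusted p = 0.0608). Irf2bp2 fell (-0.77 ± 0.09), with 49.1, 58.04, 58.5, 73.2 and 54.4 CPM in rHCI hearts, 55.4, 57.1, 57.7, 70.1 and 54.4 CPM in PBS hearts and 102, 85.9, 114, 90.4 and 109 CPM in Sham hearts. Irf2bp1 fell slightly (-0.19 ± 0.06), and with scaling by library totals its sign turned to 0.086. That scaling moved the median of all genes by 0.27 on the log2 scale in PBS against Sham, and the changes here are relative to the main scaling, whose median was -0.01.

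**Figure D3:**
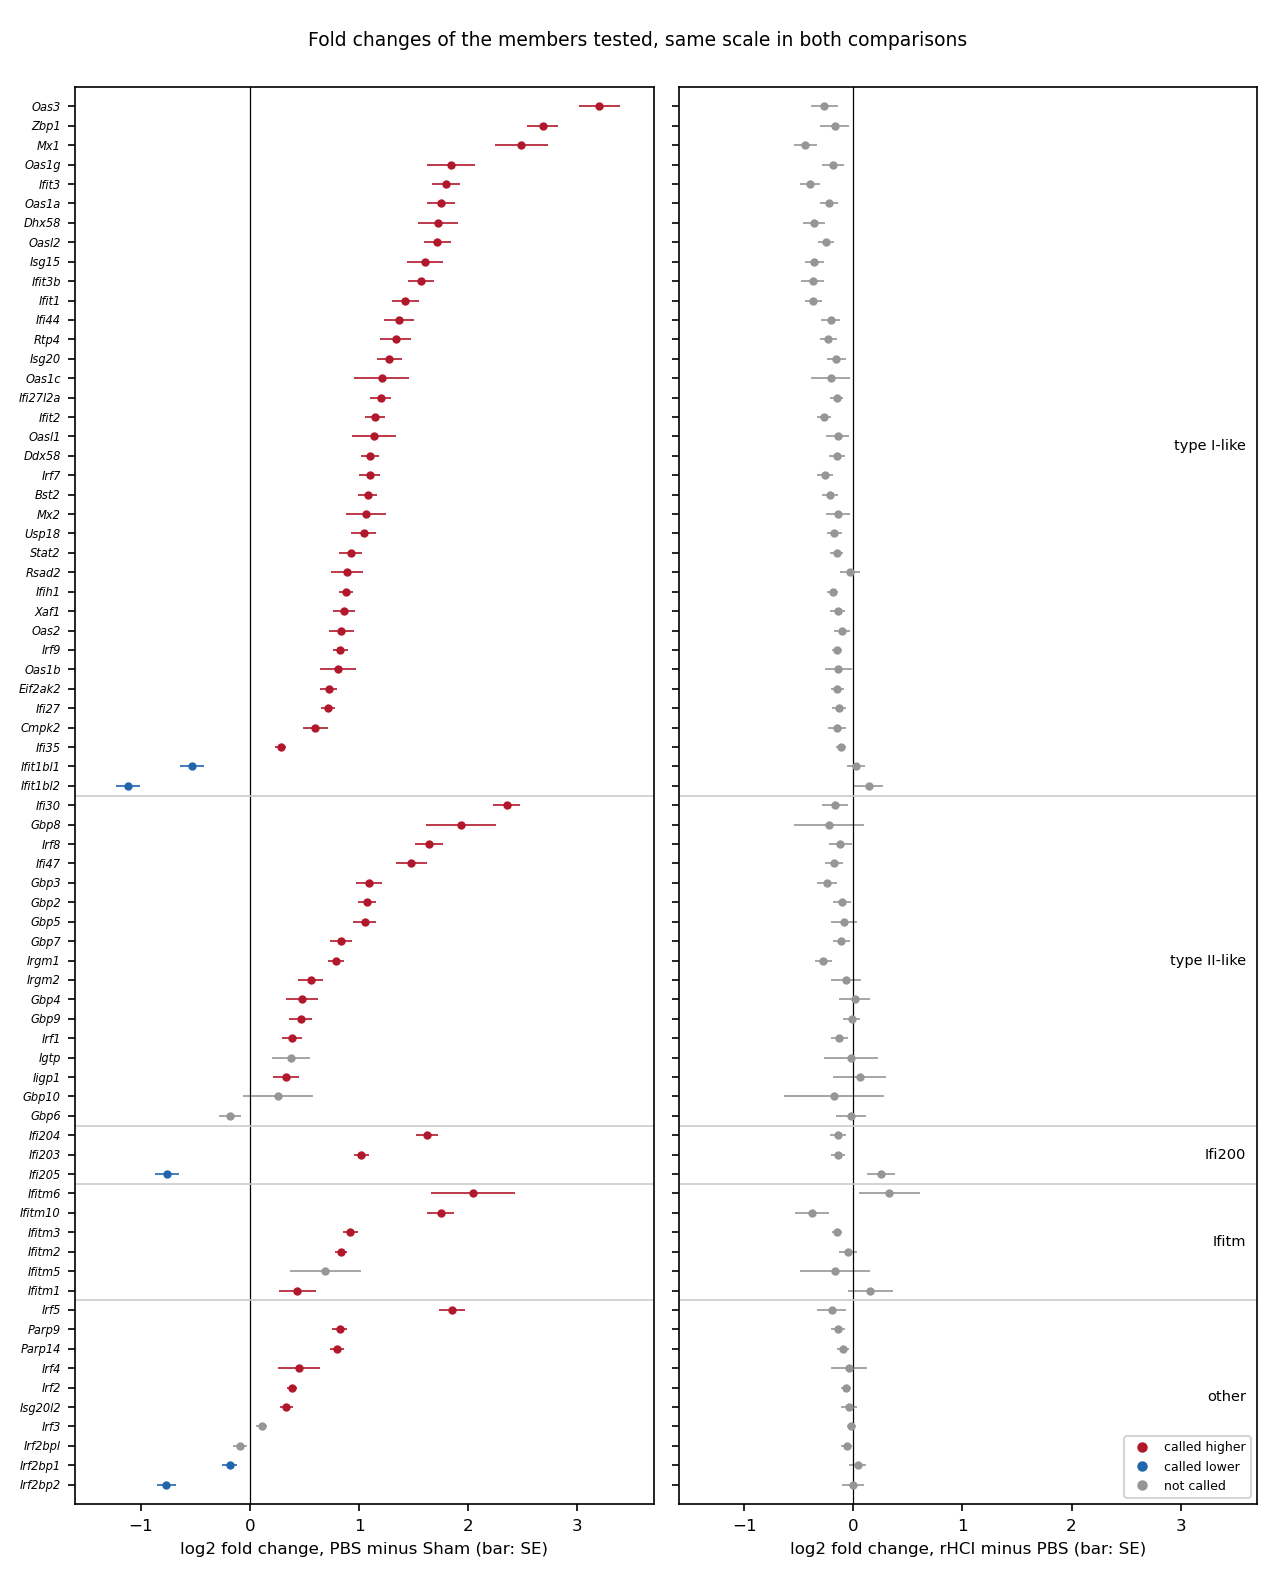
Log2 fold change with its SE (horizontal axes, same scale) of 72 members tested against Sham, grouped by class and ordered by PBS minus Sham; red marks genes called higher, blue lower and grey not called. Among those drawn, 61 are higher and 5 lower in PBS minus Sham, and in rHCI minus PBS none is called and most lie just below 0.

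Transcripts of the interferons themselves were at or near 0 counts. Of 21 interferon genes in the table, 17 had 0 counts in all 15 libraries, all 14 interferon alpha rows among them. A count of 0 there allows up to 0.00315 CPM (3 counts over all libraries, counting error only). Ifng, the only type II interferon, had 8 counts in rHCI, 7 in PBS and 2 in Sham hearts, and 6 of the 8 in rHCI came from rHCI 11. Ifnb1 had 1, 1 and 0 counts in rHCI, PBS and Sham. Whether interferon protein was present was not measured.

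The receptors and kinases did not move one way in PBS against Sham: 5 of 9 rose and 3 fell. Ifnar1 (0.88 ± 0.06) and Ifnar2 (0.61 ± 0.04), the type I receptor chains, rose. For type II, Ifngr1 rose (0.53 ± 0.06) and Ifngr2 fell (-0.34 ± 0.06). Tyk2 (0.56 ± 0.06) and Jak2 (0.29 ± 0.05) rose and Jak1 fell (-0.27 ± 0.06). Of 13 sensors and adaptors, 10 rose and 1 fell. Tlr9, an endosomal DNA receptor, rose by 2.63 ± 0.18, Ikbke, a kinase upstream of the regulatory factors, by 2.42 ± 0.12 and Tmem173 (STING), the adaptor of DNA sensing, by 2.01 ± 0.10, while Mavs, the mitochondrial adaptor of the RNA helicases, fell (log2 fold change -0.39 ± 0.06). The list of negative regulators also holds Adar and Uba7, which stand among the type I targets as well. Of its 8 tested genes, 6 rose, Ptpn6 (2.31 ± 0.12) and Socs1 (1.40 ± 0.15) among them, and 2 fell.

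Targets outside the name rule gave similar counts. Of 38 other type I targets, 36 rose and none fell (median 1.06), and Cxcl10, a chemokine for T cells, rose by 3.12 ± 0.27. Of 26 tested type II targets, 19 rose and 2 fell (median 0.65). Ciita, the regulator of MHC class II genes, rose by 2.43 ± 0.17, and H2-Aa, one of those genes, by 1.38 ± 0.13. Cxcl9, a chemokine known for its response to interferon gamma, was not called (0.27 ± 0.21). Some genes stand in more than 1 of these lists, such as Adar, Uba7 and Socs1, and Ms4a4c is also in the monocyte list.

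Markers of blood-derived and scar-forming cells moved with the members. Of 14 macrophage markers tested, 13 rose and 1 (Cd163) fell in PBS against Sham, and their summed level was 890 to 1123 CPM in rHCI, 899 to 1208.7 CPM in PBS and 286 to 351 CPM in Sham hearts. All 6 monocyte markers rose, at 28.04 to 33.04, 27.2 to 41.7 and 2.26 to 3.99 CPM in rHCI, PBS and Sham. All 6 tested neutrophil markers rose, at 10.9 to 23.4, 11.4 to 27.9 and 1.68 to 3.25 CPM. Of 15 markers of T and natural killer cells 11 rose, at 6.91 to 9.82, 7.70 to 11.2 and 4.499 to 5.67 CPM, and of 5 B cell markers 4 rose. Of 9 endothelial markers 4 rose and 1 fell, and they summed to 1055 to 1334, 1119 to 1252 and 1078 to 1198 CPM. All 8 fibroblast markers rose, and 8 of 9 cardiomyocyte markers fell, at 51662 to 79595 CPM in rHCI, 48919 to 70405 CPM in PBS and 97665 to 105645 CPM in Sham. No marker of these lists was at 0 in a whole group, and the part of these cells in the rise of the members was not tested. The plasmacytoid dendritic cell list was carried by Cox6a2, a muscle gene, and its other 3 tested genes rose (Siglech at 0.445 ± 0.157 CPM in rHCI, 0.484 ± 0.108 CPM in PBS and 0.336 ± 0.108 CPM in Sham).

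Between the infarcted groups no member was called. In rHCI against PBS, edgeR called 0.0% of 16383 genes, and the smallest adjusted p among members was 0.871. DESeq2 and limma-voom called no member either, while over all genes DESeq2 called 3 higher and 3 lower and limma-voom 3 lower. At an unadjusted p under 0.05, 26 of 76 members were lower in rHCI hearts and 0 higher, against 2.41% of all genes lower and 1.12% higher. Of the 76, 68 had a negative log2 fold change, against 49.6% of all genes, and their median was -0.15, against 0.00. These counts were added after the data were seen, and members that move together between hearts do not count as separate evidence.

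By class, of 37 type I-like genes tested, 35 were below 0 and 20 had an unadjusted p under 0.05, with a median of -0.17. Of 19 type II-like genes, 17 were below 0, 2 had such a p and the median was -0.11. The type II-like median was -0.17 without rHCI 11, -0.048 without rHCI 3, -0.054 without rHCI 7, -0.073 without PBS 2 and -0.069 without PBS 6, and whether the classes differ was not tested. The smallest p belonged to Ifit1, whose 5 rHCI hearts (13.9 to 16.6 CPM) were all below the 5 PBS hearts (17.4 to 22.9 CPM), with a log2 fold change of -0.37 ± 0.08 (unadjusted p = 6.54e-04). Mx1 (1.89 to 2.33 CPM in rHCI, 2.60 to 3.34 CPM in PBS), Oasl2 (29.8 to 33.7 and 34.0 to 45.1 CPM) and Usp18 (6.93 to 7.42 and 7.45 to 9.04 CPM) were separated in the same direction, though the Oasl2 and Usp18 ranges nearly touched. These 4 are the only members whose groups did not overlap, against 0.299% of all genes separated downward and 0.201% upward.

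Ifit3 (-0.40 ± 0.09, unadjusted p = 0.00138), Isg15 (-0.36 ± 0.09, 0.00145) and Ifit2 (-0.27 ± 0.07, 0.00178) came next. For Isg15, 4 PBS hearts were at 11.2 to 12.5 CPM, and PBS 14, at 8.97 CPM, lay within the rHCI range. Irf7 (-0.26 ± 0.07, 0.00317), Dhx58 (-0.36 ± 0.10, 0.00330), Ifih1 (-0.19 ± 0.05, 0.00371) and Irgm1 (-0.27 ± 0.08, 0.00385), the first of the type II-like genes, also stood among the 10 smallest p-values, and Mx1 (-0.44 ± 0.11, 0.00185) with Ifit3b (-0.37 ± 0.11, 0.00517) completed them. Rsad2 had a log2 fold change near 0 (-0.03 ± 0.09), with 38.5, 34.00, 30.5, 44.96 and 34.2 CPM in rHCI and 36.02, 39.97, 40.4, 36.1 and 33.8 CPM in PBS hearts. Ifitm6 had the largest positive value (0.33 ± 0.28), with at most 0.775 CPM in any heart.

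The count of members lower at an unadjusted p was 16 without PBS 9, the PBS heart highest in 18 of 36 type I-like genes, and 36 without PBS 14, the lowest in 27 of 36. Among the libraries that share the number in their file descriptions it was 19, with 61 negative values. Other targets showed similar signs: 36 of 38 other type I targets and 20 of 26 type II targets were below 0, and none was called. Cell markers differed by list: 8 of 8 fibroblast, 10 of 14 macrophage, 4 of 6 monocyte and 4 of 5 B cell markers were below 0. So were 9 of 15 T and natural killer cell markers and 3 of 4 of the plasmacytoid dendritic cell list. Only 3 of 9 endothelial, 1 of 6 neutrophil and 0 of 9 cardiomyocyte markers were below 0, and no marker was called. The part of these cells in the lower interferon-induced genes was not tested.

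**Figure D4:**
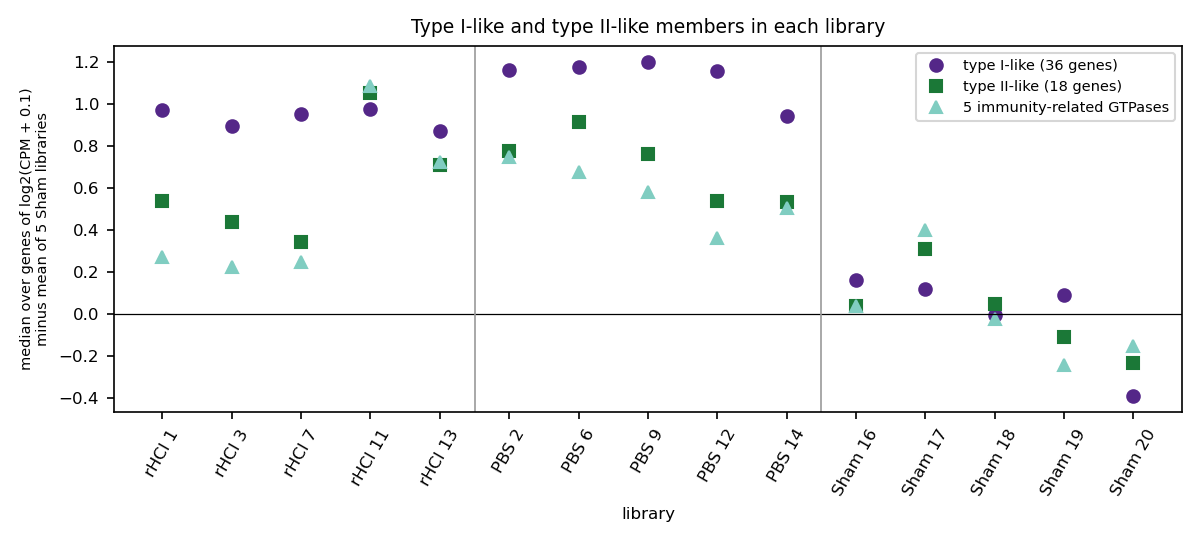
Median over genes of log2(CPM + 0.1) minus the Sham mean (vertical axis) in each of 15 libraries, for 36 type I-like genes (circles), 18 type II-like genes (squares) and 5 immunity-related GTPases (triangles). The GTPases reach 1.08 in rHCI 11 and 0.72 in rHCI 13 against 0.22 to 0.27 in the other rHCI hearts, while the type I-like median stays between 0.87 and 0.97 in all rHCI hearts.

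Within the rHCI group the hearts were close to each other in type I-like genes and spread in some type II-like genes. The median coefficient of variation of type I-like genes was 7.97% in rHCI, 10.2% in PBS and 16.9% in Sham, and that of type II-like genes was 12.8%, 11.1% and 17.05%. rHCI 11 was the highest of its group in 14 of 18 type II-like genes and rHCI 13 came second to it in Iigp1, Igtp and Irgm2. Iigp1 had 98.1 CPM in rHCI 11 and 80.5 CPM in rHCI 13, against 38.7 to 50.6 CPM in rHCI 1, 3 and 7, and PBS hearts had 46.1 to 67.4 CPM. Igtp was at 33.4 and 22.9 CPM in rHCI 11 and 13 and at 13.7 to 14.5 CPM in the other 3. Gbp10 had 0.589, 0.555, 0.484, 2.16 and 1.68 CPM in the rHCI hearts. Sham hearts averaged 46.8 ± 7.91 CPM for Iigp1, 15.5 ± 4.07 CPM for Igtp and 1.05 ± 0.347 CPM for Gbp10. Outside the members, Cxcl9 had 4.24, 3.78, 3.64, 7.77 and 4.65 CPM in the rHCI hearts. Gm4841, another GTPase gene, had 1.16, 1.13, 0.951, 7.88 and 3.38 CPM there. These 2 were picked from 27 other type II targets. That whole list summed to 1099, 1201, 1224, 1321 and 1146 CPM, with rHCI 13 below rHCI 3 and rHCI 7. rHCI 11 also had 6 of the 8 Ifng counts of its group, which is too few to compare. The summed T and natural killer cell markers were 9.82 CPM in rHCI 11 and 9.45 CPM in rHCI 13. They were 6.91 to 9.09 CPM in the other 3 and 7.70 to 11.2 CPM in PBS hearts, highest in PBS 2. Fibroblast markers summed to 13073 and 13148 CPM in rHCI 11 and 13, against 16460 to 21442 CPM in the other 3. Macrophage markers summed to 890 and 980 CPM, against 989 to 1123 CPM. Cardiomyocyte markers summed to 72735 and 79595 CPM, against 51662 to 65026 CPM. The part of these cells in the high GTPase levels was not tested.

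The type I-like genes did not single out those hearts: their median log2 ratio to Sham was 0.97, 0.89, 0.95, 0.97 and 0.87 in rHCI, and 1.16, 1.17, 1.20, 1.15 and 0.94 in PBS hearts. PBS 14 lay within the range of the rHCI hearts, and the other PBS hearts were above it. Among Sham hearts, Sham 20 was the lowest in 30 of 36 type I-like genes and Sham 17 the highest in 16 of 18 type II-like genes. The median ratio of the type II-like genes was 0.31 in Sham 17 and -0.23 in Sham 20. Without Sham 20 the median type I-like log2 fold change in PBS against Sham was 1.02.

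**Figure D5:**
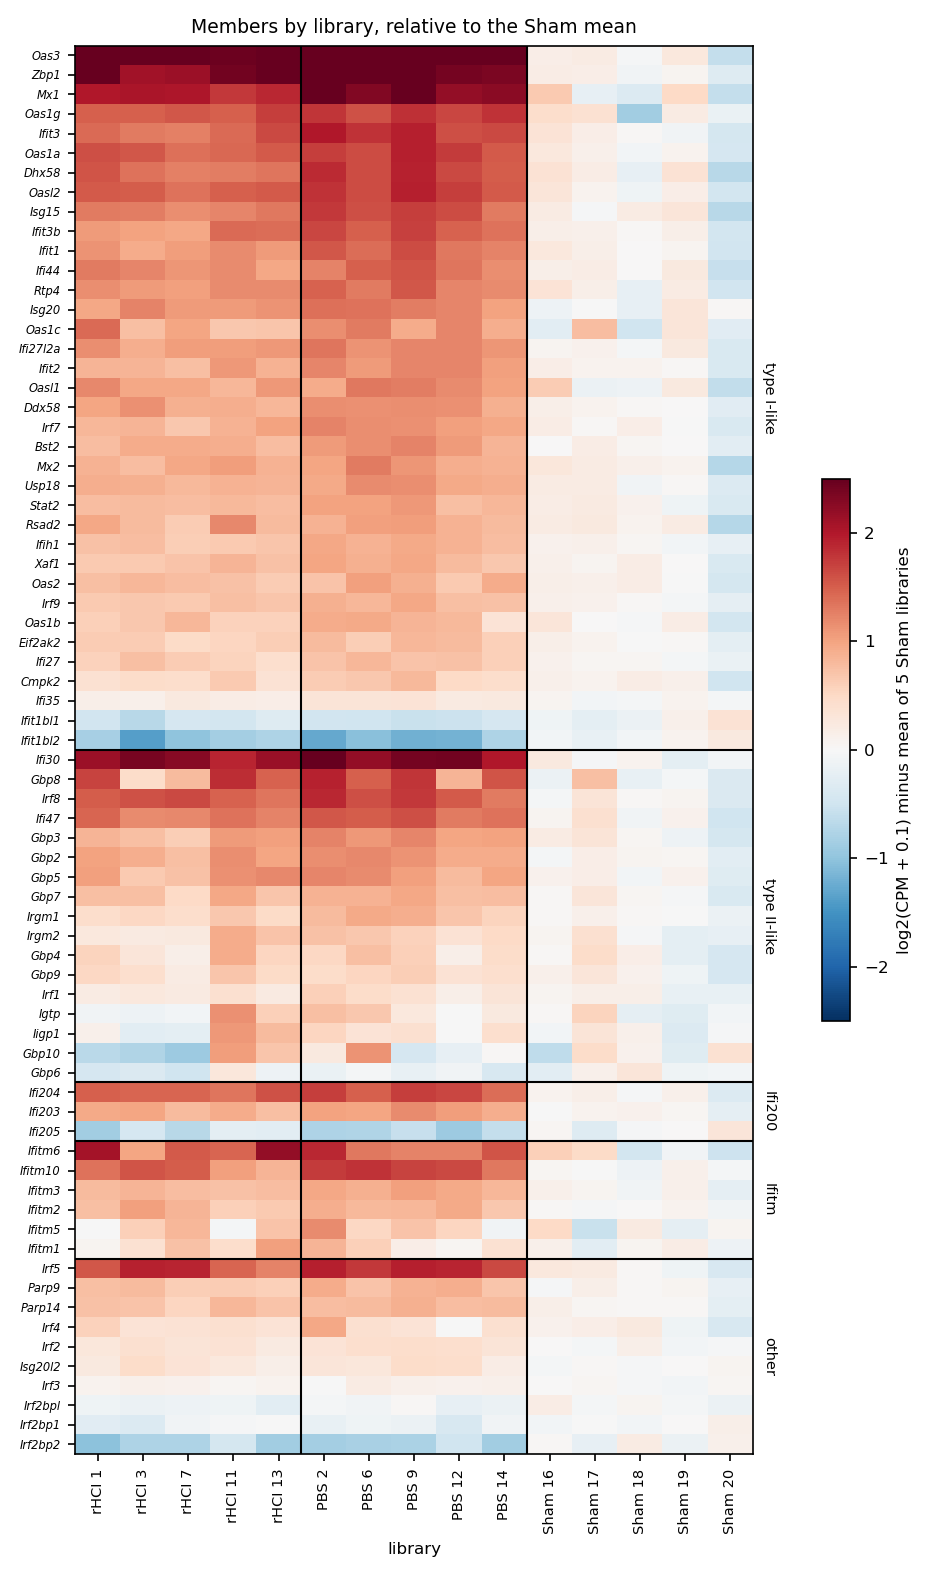
Log2(CPM + 0.1) minus the mean of the 5 Sham libraries (colour) for 72 members tested against Sham (rows, by class and size of change) in each library (columns, rHCI, PBS and Sham from left to right). The 10 infarcted hearts are red in most rows, and the Ifit1bl1 and Ifit1bl2 rows are blue there. Igtp, Iigp1 and Gbp10 are red in rHCI 11 and rHCI 13. In the other rHCI hearts these genes are near or below the Sham mean.

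In rHCI against Sham, 61 of 74 members rose and 4 fell, with a median of 0.79, against 63.9% of 16076 genes called (34.1% higher, 29.7% lower). The 61 include Gbp8 and Ifitm6, which passed the filter through the infarcted hearts. The type I-like median was 0.95 and the type II-like median 0.51. All 36 type I-like genes were called, as in PBS against Sham, 34 higher and 2 lower. Of the type II-like genes 14 rose, and Iigp1 (0.40 ± 0.24, adjusted p = 0.171) and Igtp (0.36 ± 0.25, adjusted p = 0.222) were not called. Without rHCI 11 the log2 fold change was 0.16 for Iigp1 and 0.089 for Igtp. The 4 lower genes were Ifit1bl1 (-0.49 ± 0.12), Ifit1bl2 (-0.96 ± 0.12), Ifi205 (-0.49 ± 0.14) and Irf2bp2 (-0.77 ± 0.11). With scaling by library totals, Ifit1bl1 and Ifi205 (each -0.27) were no longer called and Iigp1 was (0.60). Side by side in rHCI and in PBS, each against the same Sham hearts, Oas3 had log2 fold changes of 2.94 and 3.20, Ifit3 1.41 and 1.80, Isg15 1.25 and 1.60, Gbp2 0.98 and 1.07, and Irf8 1.53 and 1.64. Ifitm1 (0.60 and 0.43) and Iigp1 (0.40 and 0.33) had the larger value in rHCI. Of 76 members tested in rHCI against PBS, 68 were below 0 and 8 above, and none was called.

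Between genes, levels were compared per kilobase of annotated exon. Ifitm3 was the highest member in every group, at 147, 163 and 85.8 CPM per kb in rHCI, PBS and Sham hearts. Ifitm2 followed at 109, 113 and 63.6 CPM per kb and Ifi27l2a, a small membrane protein, at 55.7, 62.0 and 27.0 CPM per kb. Bst2 was next in both infarcted groups, at 35.9 CPM per kb in rHCI and 41.6 CPM per kb in PBS, and had 19.7 CPM per kb in Sham hearts.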

How the data were processed

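mRNA libraries that keep strand were made from 15 left ventricles, per the labels' protocols. The deposited counts are unnormalised whole numbers, with an Ensembl identifier and symbol per row and 1 column per library, and 0 columns were left unmatched. STAR, Trimmomatic, edgeR, Cufflinks and the builds GRCm38 and mm10 stand in the submitters' processing notes without roles. Which tool counted reads, and with which strand setting, is not given in the sources used here, so values of overlapping, antisense or near-identical genes are uncertain. Groups came from the sample titles. If libraries of a group share an animal, p-values measure only the spread between libraries. The 30 replicate pairs all differed beyond sampling noise (chi-square per gene at least 10.7), so none was merged.

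Each pair of groups was tested on its 10 libraries with edgeR 4.0.16 in R 4.3.3 (genes kept by filterByExpr, TMM factors, the two-sided quasi-likelihood test of glmQLFit and glmQLFTest, Benjamini-Hochberg adjustment across all tested genes, threshold 0.05), a procedure that was also tested on simulated data. CPM used TMM factors from all 15 libraries. Library depth sets the counting error, and floors of 3 counts cover counting error only. Gene positions and exon lengths came from GENCODE M21 (GRCm38), and promoters from RefSeq (GRCm38.p6). Alternatives were RLE factors, library totals, DESeq2 1.42.0, voom with quality weights in limma 3.58.1, no filter, a filter at 1 CPM, 1 fit of all libraries, a number in the labels' file descriptions as a covariate, the libraries that share its most frequent value alone, and each library left out in turn. The labels do not explain that number.

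The members, classes, marker lists and pathway lists were chosen with earlier results of these data known. Genes to be named were up to 4 per class with the largest change among those called, at 5 CPM or more in the higher group and without overlap, all members called lower, the 10 smallest p-values in rHCI against PBS, members without overlap there, and a list of well-known members. Other members that the text names, and those singled out from the other lists, were chosen after their values were seen. Some members enter the counts and are not reported by name or drawn here.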

Additional observations from a re-analysis of the deposited data

Results flagged for a closer look

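In 141 sets of 5 hearts (47 named members in 3 groups), 9 held a heart set apart from its nearest neighbour. The gap, as a share of the whole range, was above Dixon's 95% critical value. Chance alone gives about 1 in 20 sets, and 9 of 141 is close to that rate. In Sham 20, Ifit2 (13.9 CPM, the other 4 at 18.5 to 20.3), Ifit3b (2.19 CPM, others 3.11 to 3.35), Mx2 (0.785 CPM, others 1.44 to 1.65) and Rsad2 (11.8 CPM, others 20.8 to 23.2) were low. Irf1 was high in rHCI 11 (29.2 CPM, others 25.4 to 26.4) and Oasl2 low in rHCI 7 (29.8 CPM, others 32.8 to 33.7). Among PBS hearts, Ddx58 was low in PBS 14 (28.3 CPM, others 33.4 to 34.2), Parp14 high in PBS 9 (57.2 CPM, others 52.9 to 54.0) and Irf2bp2 high in PBS 12 (70.1 CPM, others 54.4 to 57.7). Genes that share an outlying heart are not separate observations.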

How the results depend on the processing

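No paired analysis was possible because the groups share no replicate number. Scaling by library totals moved all values up against Sham. In PBS against Sham it gave 8938 genes called higher and 2610 lower, 3 members lower, and medians of 1.18 for members, 1.39 for type I-like and 0.95 for type II-like genes, and Irf2bp1 reversed to 0.086. In rHCI against Sham it gave 2128 genes lower, 2 members lower and medians of 1.01 (members) and 1.17 (type I-like). In rHCI against PBS it gave medians of -0.19 and -0.22, and Iigp1 at -0.000193. There DESeq2 called 3 genes higher and 3 lower, and voom 3 lower with a type I-like median of -0.20 and Iigp1 at -0.065. With the number in the file descriptions as a covariate that median was -0.20 and 1 member was higher at an unadjusted p under 0.05. Igtp (0.15) and Irgm2 (0.012) turned positive. The libraries sharing 1 such number gave 1, 0.15 and 0.014. None of these members was called in any of those fits. In rHCI against PBS, rHCI 1 and PBS 6 each carry a number that no other library there has. The covariate takes them out of the comparison, so it and the shared-number libraries are not separate checks.

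Leaving out 1 heart at a time, the type II-like median in PBS against Sham was 0.64 to 0.85. In rHCI against Sham the medians were 0.72 to 0.82 for members and 0.83 to 0.96 for type I-like genes. In rHCI against PBS, 0 to 3 genes were called lower (3 without rHCI 13), 16 to 36 members were lower and 0 to 1 higher at an unadjusted p under 0.05, and the medians were -0.18 to -0.13 for members and -0.21 to -0.16 for type I-like and -0.17 to -0.048 for type II-like genes. There Igtp ranged over -0.29 to 0.082, Iigp1 over -0.17 to 0.18 and Rsad2 over -0.12 to 0.026. Members with few counts, such as Gbp11 and Ifi27l2b, are limited by depth.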
